A study of Homo sapiens with 26 samples.

Results

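LoVo cells carrying the PIK3CA mutation H1047R were grown either in S-CM, medium conditioned by senescent cells, or in DMSO, and their RNA was sequenced. LoVo is a human colorectal cancer line. The mutation was introduced with lentiviral vectors, and PIK3CA is the gene of p110-alpha, a catalytic subunit of the PI3K lipid kinase. The libraries compared were the 2 labelled H1047R S-CM and the 2 labelled H1047R DMSO, 4 of the 26 libraries of the series. They were chosen by those labels and not by any measured value. Set beside them, from the same table of 18 libraries, were H1047R cells in 0.5 µM palbociclib, which blocks CDK4 and CDK6, and the S-CM and DMSO libraries of E545K mutant and WT LoVo cells, 2 of each. All these cells grew in DMEM with 10% serum. Palbociclib and DMSO were given for 72 hours by the labels' protocols, which say that conditioned medium was collected after 72 hours of 0.5 µM palbociclib. They also give 48 hours for the collection of control cells, without naming the libraries. The hours spent in S-CM, the cells that conditioned it, and the H1047R clone used are not stated in the sources used here. Each mutant line may therefore stand for a single clone. The protocols name DMSO as the control of the conditioned medium, without saying whether the DMSO libraries came from cells given medium conditioned under DMSO.

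Senescent cells stop dividing and release cytokines, growth factors and proteases, the secretory phenotype that conditioned medium carries to other cells. Signals of this kind are known to act through NF-kB, interferon, EGF receptor and TGF-beta pathways in epithelial cells. The PI3K pathway, which H1047R activates, lies downstream of growth factor receptors and restrains FOXO transcription factors.

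Values are FPKM, fragments scaled by transcript length and by the mapped fragments of the library, given for replicate 1 and then replicate 2 of each group. A log2 change is the difference of the group means of log2(FPKM + 1), S-CM minus DMSO, with its standard error (SE). The added 1 makes it understate the change of low genes. The p-values come from limma, adjusted over 12607 genes with the Benjamini-Hochberg method, and a gene was called below 0.05. Nothing states that replicates are separate cultures, so these p-values measure the spread between replicate libraries, which may be technical. The fit shares 1 spread per gene over all 18 libraries of the table. The spread (SD of log2 values) was 0.17 in H1047R DMSO and 0.0993 in H1047R S-CM, so a shared value can understate that of DMSO. Read depth is unknown for values of this kind. From 11815 to 11851 genes reached 1 FPKM in the S-CM libraries and from 11799 to 12071 in the DMSO libraries. The replicates were not equally close: 33 genes differed by more than 1.5-fold between the S-CM replicates, and 242 between the DMSO replicates. Replicates correlated across genes at 0.997 in S-CM and 0.991 in DMSO. Epithelial marker genes summed to 9028 and 9415 FPKM in S-CM and to 9017 and 7810 FPKM in DMSO, most of it from KRT8 and KRT18. Of the 11 epithelial markers tested 4 were called lower in S-CM and none higher. Leukocyte markers summed to 3.16 and 2.90 FPKM in S-CM and to 3.07 and 5.33 FPKM in DMSO, and endothelial markers stayed under 1 FPKM in all 4 libraries. Fibroblast markers summed to 12.7 and 13.0 FPKM in S-CM and to 9.01 and 9.56 FPKM in DMSO, nearly all of it COL3A1, while DCN was listed at 0 in every one.

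S-CM changed many genes by small amounts. Of the 12607 genes tested 1844 were called, 14.6%, of which 1091 were higher in S-CM (8.65%) and 753 lower (5.97%). The median size of a called log2 change was 0.39, and 35 called genes passed a log2 change of 1, 11 of them higher and 24 lower. The groups did not overlap for 54.4% of genes, 29.9% in the higher direction and 24.5% in the lower. The median change of all genes was 0.01. These counts fell when any 1 of the 4 libraries was left out, which leaves 1 library in its group. Without S-CM replicate 1 there were 400 higher and 286 lower genes, and without S-CM replicate 2 there were 391 and 295. Without DMSO replicate 1 there were 872 higher and 646 lower genes, and without DMSO replicate 2 there were 607 and 500. With only these 4 libraries in the fit 361 were higher and 244 lower. In bulk RNA a change in the share of cells that express a gene and a change of its RNA per cell cannot be told apart.

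**Figure D1:**
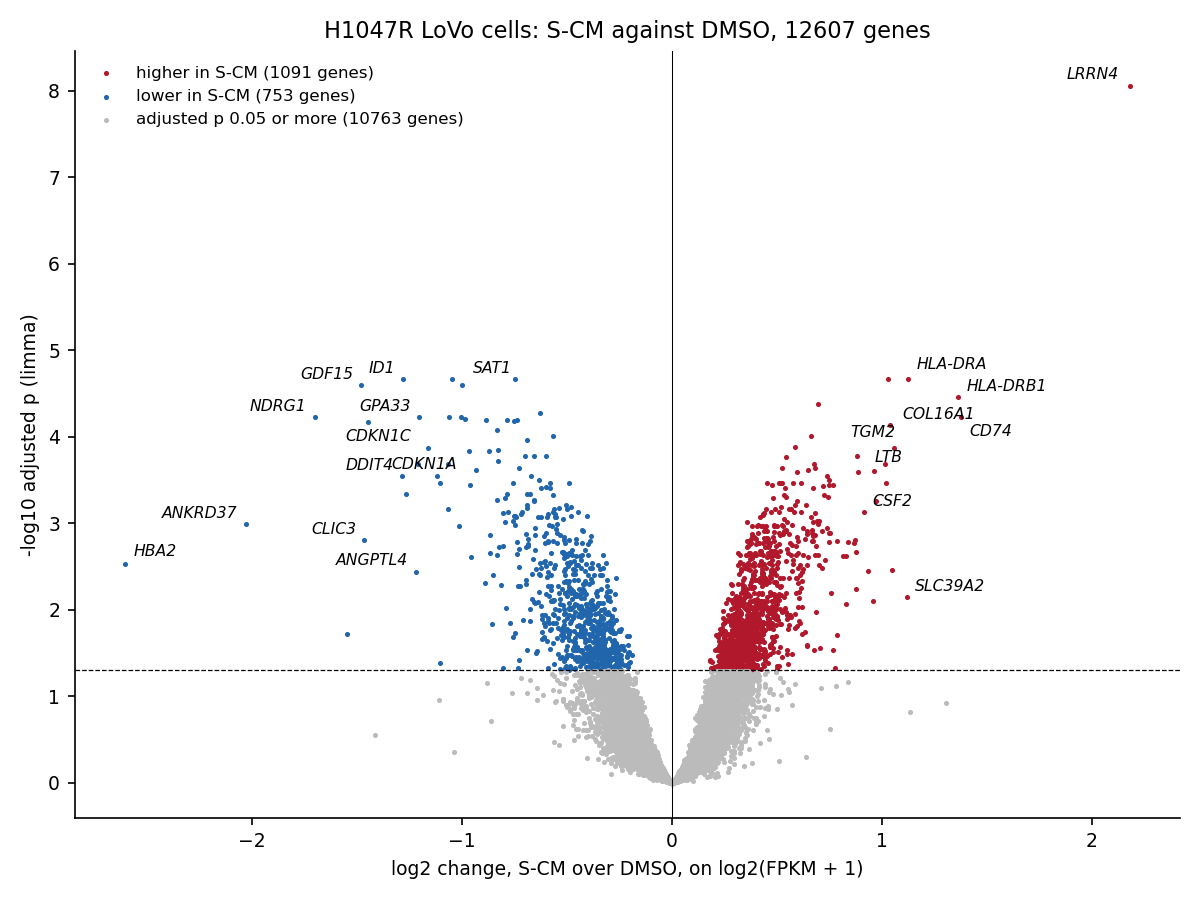
Each point is 1 of the 12607 genes tested, by its log2 change (S-CM minus DMSO, log2(FPKM + 1), x axis) and the −log10 of its adjusted p in limma (y axis). Coloured points are the 1091 higher and 753 lower genes; LRRN4 lies far to the upper right, and most called genes sit within 1 unit of 0.

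The promoters of 2 gene groups are shown first, as these groups held many of the largest changes: HLA class II genes among the higher genes and hypoxia genes among the lower. HLA class II molecules display peptides to CD4+ T cells. Their promoters are known to carry an X box, bound by the RFX complex, and a Y box, bound by NF-Y, on which the coactivator CIITA assembles. Hypoxia genes are known to be induced by HIF-1, which binds a core of ACGTG. The sequences are RefSeq promoters of GRCh38.p14, from 250 bases before to 50 after the annotated start, read 5′ to 3′ along the gene's strand. For HLA class II the letters ACNGATG, part of the X box (CATCNGT on the other strand), and CCAAT, the core of the Y box (ATTGG), are in capitals, and for hypoxia genes ACGTG, whose other strand reads CACGT. HLA-DRB1 lies at chr6:32589799-32590098 and HLA-DMB at chr6:32940979-32941278, both on the minus strand. ANKRD37 lies at chr4:185396591-185396890 and ENO2 at chr12:6914330-6914629, both on the plus strand.
HLA-DRB1: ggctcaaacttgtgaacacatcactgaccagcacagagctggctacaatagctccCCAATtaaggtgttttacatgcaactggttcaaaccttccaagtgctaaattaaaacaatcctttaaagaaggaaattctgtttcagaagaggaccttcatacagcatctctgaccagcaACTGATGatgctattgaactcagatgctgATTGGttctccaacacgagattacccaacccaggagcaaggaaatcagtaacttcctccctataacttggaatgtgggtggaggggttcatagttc
HLA-DMB: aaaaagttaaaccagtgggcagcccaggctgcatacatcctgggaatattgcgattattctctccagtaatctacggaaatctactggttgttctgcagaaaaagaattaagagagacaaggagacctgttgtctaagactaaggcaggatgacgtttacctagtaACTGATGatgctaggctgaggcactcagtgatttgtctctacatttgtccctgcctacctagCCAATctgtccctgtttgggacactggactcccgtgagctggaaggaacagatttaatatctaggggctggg
ANKRD37: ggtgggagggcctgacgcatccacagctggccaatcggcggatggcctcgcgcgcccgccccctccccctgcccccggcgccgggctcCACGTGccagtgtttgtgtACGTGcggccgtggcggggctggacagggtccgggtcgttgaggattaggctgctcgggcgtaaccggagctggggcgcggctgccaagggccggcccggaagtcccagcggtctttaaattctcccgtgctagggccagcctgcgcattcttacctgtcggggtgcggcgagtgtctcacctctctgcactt
ENO2: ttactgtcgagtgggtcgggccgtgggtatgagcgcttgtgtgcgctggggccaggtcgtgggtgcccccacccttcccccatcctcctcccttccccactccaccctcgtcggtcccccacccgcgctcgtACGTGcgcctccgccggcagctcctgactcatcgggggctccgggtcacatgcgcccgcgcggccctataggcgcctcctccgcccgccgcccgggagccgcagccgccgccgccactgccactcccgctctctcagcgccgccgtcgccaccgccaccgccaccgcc
ACNGATG stood in 6 of the 10 class II genes that matched a promoter, namely CD74, HLA-DMA, HLA-DMB, HLA-DQB1, HLA-DRB1 and HLA-DRB5. It stood in 54.5% of their 11 windows, against 7.65% of all 35116 promoter windows. CCAAT stood in 9 of the 10, and in 81.8% of the 11 windows against 34.6% of all windows. ACGTG stood in 20 of the 30 hypoxia genes matched, and in 43.4% of their 53 windows against 21.4% of all windows. ANKRD37 held 3 matches, 2 of which overlap on opposite strands in CACGTG, and ENO2 held 1. A match describes the letters in this window and is not a bound site.

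The largest rise in S-CM was that of LRRN4, which encodes a membrane protein with leucine-rich repeats (chromosome 20, 6040546 to 6054060 in GRCh38.p14). It had 36.14 and 38.42 FPKM in S-CM and 7.81 and 7.09 FPKM in DMSO (log2 change 2.18, SE 0.09, adjusted p 8.76e-09), 5.00-fold on the linear scale. Among the next were HLA class II genes, described below, COL16A1, a collagen gene, ANXA8, an annexin gene, and CSF2, the gene of the cytokine GM-CSF. COL16A1 had 8.05 and 8.43 FPKM in S-CM and 3.36 and 3.65 FPKM in DMSO (log2 change 1.04). ANXA8 had 27.27 and 27.73 FPKM in S-CM and 12.52 and 13.67 FPKM in DMSO (1.02). ANXA8 has a near-identical copy, ANXA8L1, at 11.01 and 12.78 FPKM in S-CM and 5.00 and 6.30 FPKM in DMSO, whose call was lost without DMSO replicate 1 (adjusted p 0.0525) and without S-CM replicate 2 (0.0749), so the split of reads between the pair is uncertain. CXorf49B, at 19.16 and 20.74 FPKM in S-CM and 10.67 and 8.13 FPKM in DMSO, also has such a copy, CXorf49, which was listed at 0. TGM2, the crosslinking enzyme transglutaminase 2, rose with a log2 change of 0.88, as did GUCA2A, the precursor of the gut peptide guanylin, with 0.88. SLC39A2, a zinc importer, had 10.26 and 11.05 FPKM in S-CM and 6.89 and 2.65 FPKM in DMSO. Its log2 change was 1.12 with both DMSO libraries and 0.56 without DMSO replicate 2, and its call was lost without S-CM replicate 2 (adjusted p 0.0588).

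Among the lower genes the greatest change was in HBA2, an alpha-globin gene, at 1.95 and 0 FPKM in S-CM and 6.46 and 13.67 FPKM in DMSO. Its near-identical neighbour HBA1 stood at 130.71 and 138.24 FPKM in S-CM and 117.13 and 73.34 FPKM in DMSO (log2 change 0.53, adjusted p 0.0687), so how reads were shared between these copies is uncertain. GDF15, a stress-induced cytokine gene, had 20.25 and 26.16 FPKM in S-CM and 64.28 and 67.75 FPKM in DMSO (log2 change -1.48, SE 0.13, adjusted p 2.55e-05). Its S-CM libraries lay far below both DMSO libraries. GPA33, the gene of an antigen of intestinal epithelium, fell to 20.16 and 21.15 FPKM in S-CM, against 59.03 and 40.43 FPKM in DMSO (-1.20). CLIC3, a chloride channel family gene, fell to 2.39 and 2.97 FPKM in S-CM, against 12.51 and 6.60 FPKM in DMSO (-1.47). SAT1, which starts the breakdown of polyamines, fell to 119.47 and 105.00 FPKM in S-CM, against 212.70 and 238.03 FPKM in DMSO (it fell by 1.00, SE 0.09, adjusted p 2.55e-05).

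**Figure D2:**
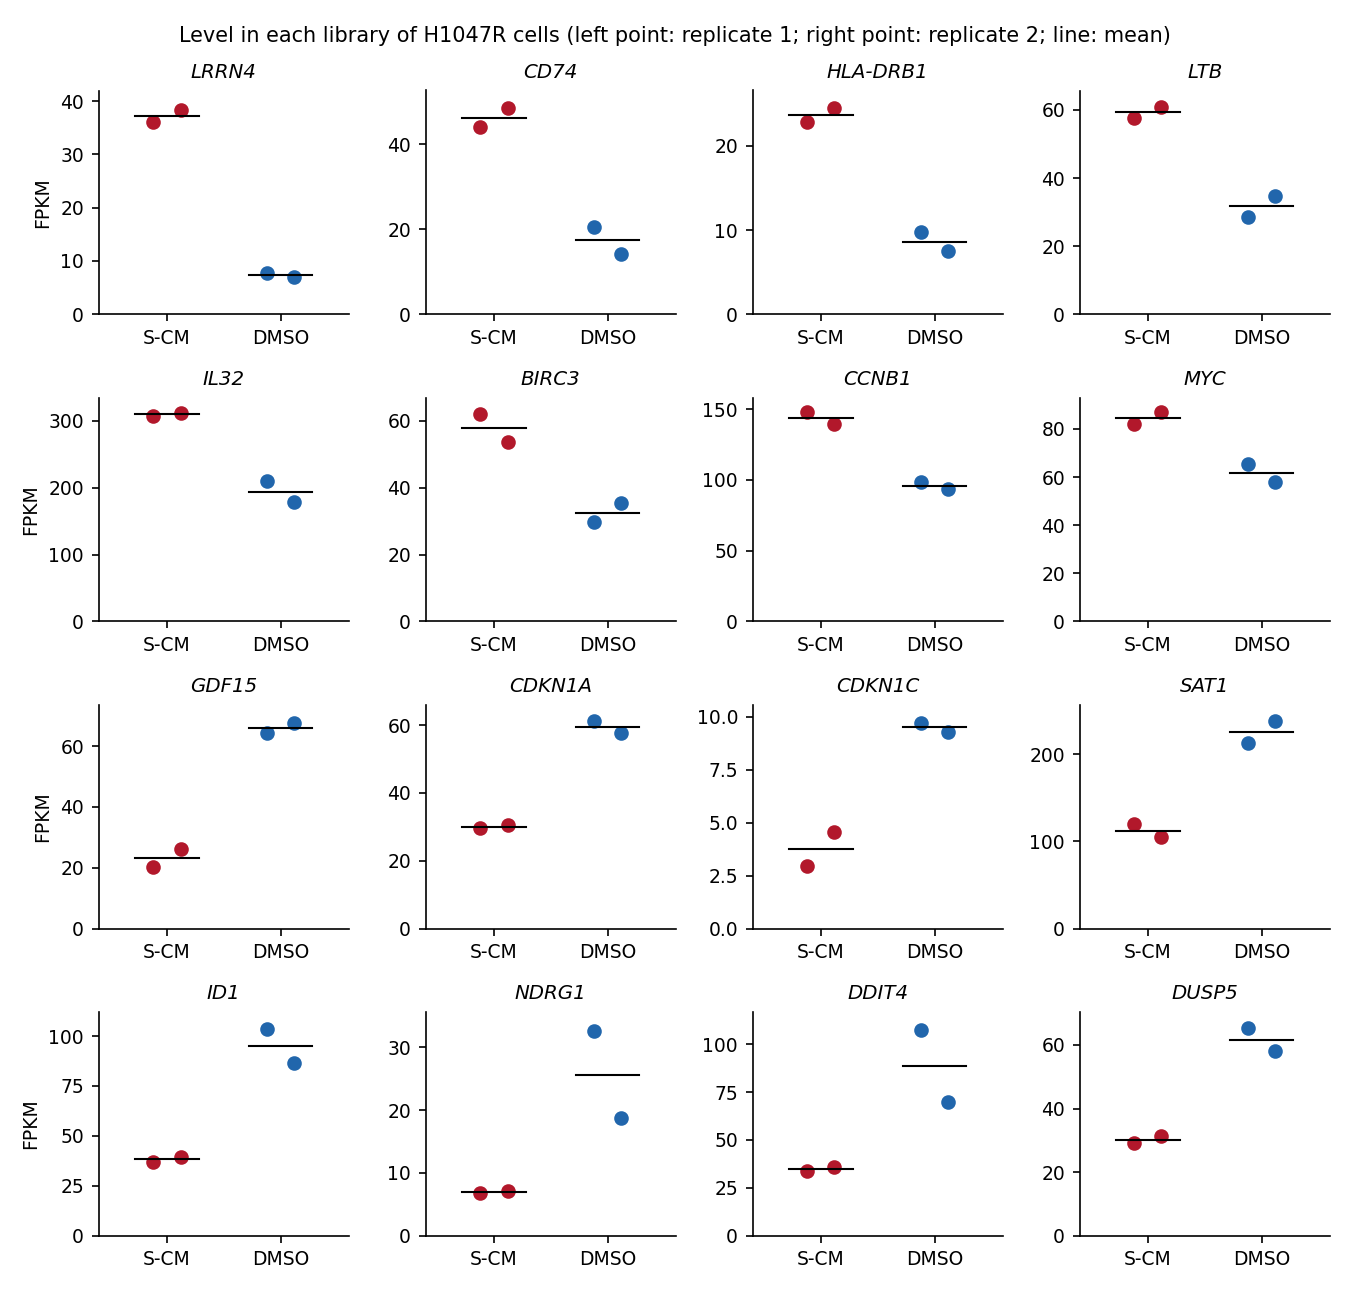
Each panel shows 1 of 16 genes with its FPKM (y axis, from 0) in the single libraries, S-CM left of DMSO, with a line at each group's mean. The S-CM and DMSO libraries do not overlap in any panel, and the DMSO pair lies furthest apart in NDRG1 and DDIT4.

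Most HLA class II genes rose in S-CM. Of the 12 genes of the list, all tested, 10 were called, all higher. In all 12 both S-CM libraries lay above both DMSO libraries, where 29.9% of all genes tested did so. The median log2 change of the 12 was 0.90, against 0.01 over all genes. CD74, the invariant chain that guides class II molecules to the endosome, had 43.97 and 48.40 FPKM in S-CM and 20.49 and 14.29 FPKM in DMSO (log2 change 1.38, SE 0.14, adjusted p 5.93e-05), 2.66-fold. The chain genes HLA-DRA and HLA-DRB1 form the HLA-DR molecule. HLA-DRA had 37.22 and 39.31 FPKM in S-CM and 17.42 and 16.59 FPKM in DMSO (1.12, SE 0.10, adjusted p 2.16e-05). HLA-DRB1, whose promoter is printed above, had 22.87 and 24.45 FPKM in S-CM and 9.74 and 7.53 FPKM in DMSO (1.36, SE 0.13, adjusted p 3.46e-05). The low HLA-DRB5 rose to 1.11 and 1.25 FPKM in S-CM, against 0.25 and 0.14 FPKM in DMSO. Reads of the near-identical DRB genes may be shared among them. HLA-DPA1 had 6.93 and 6.89 FPKM in S-CM and 3.04 and 2.71 FPKM in DMSO (1.03). The other chain genes HLA-DPB1, HLA-DQA1 and HLA-DQB1 rose with log2 changes of 0.59, 0.87 and 0.57. HLA-DMA and HLA-DMB encode the DM molecule, which exchanges peptides on class II molecules. HLA-DMB had 3.18 and 3.26 FPKM in S-CM and 1.01 and 1.3 FPKM in DMSO (0.97), and HLA-DMA rose by a like amount (0.94). Neither HLA-DOB, at 4.92 and 4.96 FPKM in S-CM and 3.17 and 4.23 FPKM in DMSO (adjusted p 0.331), nor CIITA, at 1.74 and 1.87 FPKM in S-CM and 1.26 and 1.55 FPKM in DMSO (adjusted p 0.118), was called. Without each of the 4 libraries in turn the count stayed at 10 higher, and with only the 4 libraries in the fit it was 9. CD74 and class II genes are also expressed by leukocytes. Of the 8 leukocyte markers in the table PTPRC reached 0.74 and 1 FPKM in S-CM and 0.82 and 1.55 FPKM in DMSO. LYZ reached 1.59 and 1.18 FPKM in S-CM and 1.61 and 2.82 FPKM in DMSO. The other 6 stayed under 0.5 FPKM in each library. Among these ITGAM lay higher in S-CM, at 0.40 and 0.44 FPKM in S-CM and 0.12 and 0.10 FPKM in DMSO. NKG7 lay lower, at 0 and 0 FPKM in S-CM and 0.09 and 0.21 FPKM in DMSO. The part of leukocytes in the class II result was not tested.

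The wider interferon response moved little. Of 44 type I interferon genes tested 8 were higher and 1 lower, with a median log2 change of 0.09. IFI6, a mitochondrial interferon-induced protein gene, had 23.03 and 24.15 FPKM in S-CM and 15.25 and 12.37 FPKM in DMSO (0.74, adjusted p 0.00112). IFI27 had 35.46 and 35.36 FPKM in S-CM and 24.50 and 21.71 FPKM in DMSO (0.60), and SAMD9, an antiviral factor gene, rose by 0.67. Of these 44 genes 7, 6, 5 and 4 were higher without DMSO replicate 1, DMSO replicate 2, S-CM replicate 1 and S-CM replicate 2. MX1 stood at 46.85 and 46.48 FPKM in S-CM and 39.86 and 38.45 FPKM in DMSO, a call (adjusted p 0.0311) that was lost without any one of the 4 libraries, with adjusted p from 0.0604 to 0.148. HLA class I and peptide loading genes had 4 of 18 higher and none lower. TAP2, a subunit of the peptide transporter, had 27.33 and 29.13 FPKM in S-CM and 19.10 and 17.54 FPKM in DMSO (0.60, adjusted p 0.000258), while the calls of ERAP1, PSMB8 and PDIA3 were each lost without at least 1 library. The class I count was 2 without DMSO replicate 1 and 1 without any other of the 4 libraries.

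NF-kB targets were mixed, with 11 of 33 higher and 3 lower and a median log2 change of 0.15. LTB, the membrane anchor of lymphotoxin, had 57.58 and 60.96 FPKM in S-CM and 28.70 and 34.77 FPKM in DMSO (0.89, SE 0.11, adjusted p 0.000255). BIRC3, an inhibitor of apoptosis and a feedback target of NF-kB, had 62.12 and 53.67 FPKM in S-CM and 29.68 and 35.43 FPKM in DMSO (0.81). IL32, a cytokine gene, had 307.09 and 312.29 FPKM in S-CM and 209.63 and 179.19 FPKM in DMSO (0.67). The chemokine genes of this list, CXCL1, CXCL2, CXCL3, CXCL8, CCL2 and CCL20, were not called. Outside it the chemokine gene CXCL10 stood at 6.90 and 6.70 FPKM in S-CM and 4.03 and 5.44 FPKM in DMSO (0.45, adjusted p 0.0338), and its call was lost without DMSO replicate 1 (0.229) and without either S-CM library. CXCL8 stood at 44.64 and 39.63 FPKM in S-CM and 30.53 and 49.01 FPKM in DMSO (0.12, adjusted p 0.715), with overlapping groups. CCL20 stood at 17.52 and 14.25 FPKM in S-CM and 14.09 and 14.27 FPKM in DMSO (0.15, adjusted p 0.748). IER3, an early response gene, fell by 0.71. Without S-CM replicate 1 there were 6 higher NF-kB targets and 2 lower, and without S-CM replicate 2 there were 5 and 2. Without DMSO replicate 1 they were 8 and 2, and without DMSO replicate 2 they were 8 and 5.

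Factors secreted by senescent cells, measured here in the cells that received the medium, split both ways: 7 of 44 were higher and 11 lower. CSF2 had 9.32 and 10.13 FPKM in S-CM and 3.99 and 5.47 FPKM in DMSO (log2 change 0.92, SE 0.13, adjusted p 0.000742). IL1B, the gene of the cytokine interleukin-1 beta, had 13.20 and 12.88 FPKM in S-CM and 22.05 and 21.32 FPKM in DMSO (-0.69, adjusted p 0.00011). GDF15 and VEGFA, a growth factor of blood vessels, were also lower. MMP7, a protease gene, stood at 5.05 and 2.93 FPKM in S-CM and 1.74 and 1.58 FPKM in DMSO, and its call was lost without S-CM replicate 1 (log2 change 0.56, adjusted p 0.0854). The higher and lower counts were 4 and 12 without DMSO replicate 1, 6 and 9 without DMSO replicate 2, 4 and 7 without S-CM replicate 1, and 5 and 5 without S-CM replicate 2.

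**Figure D3:**
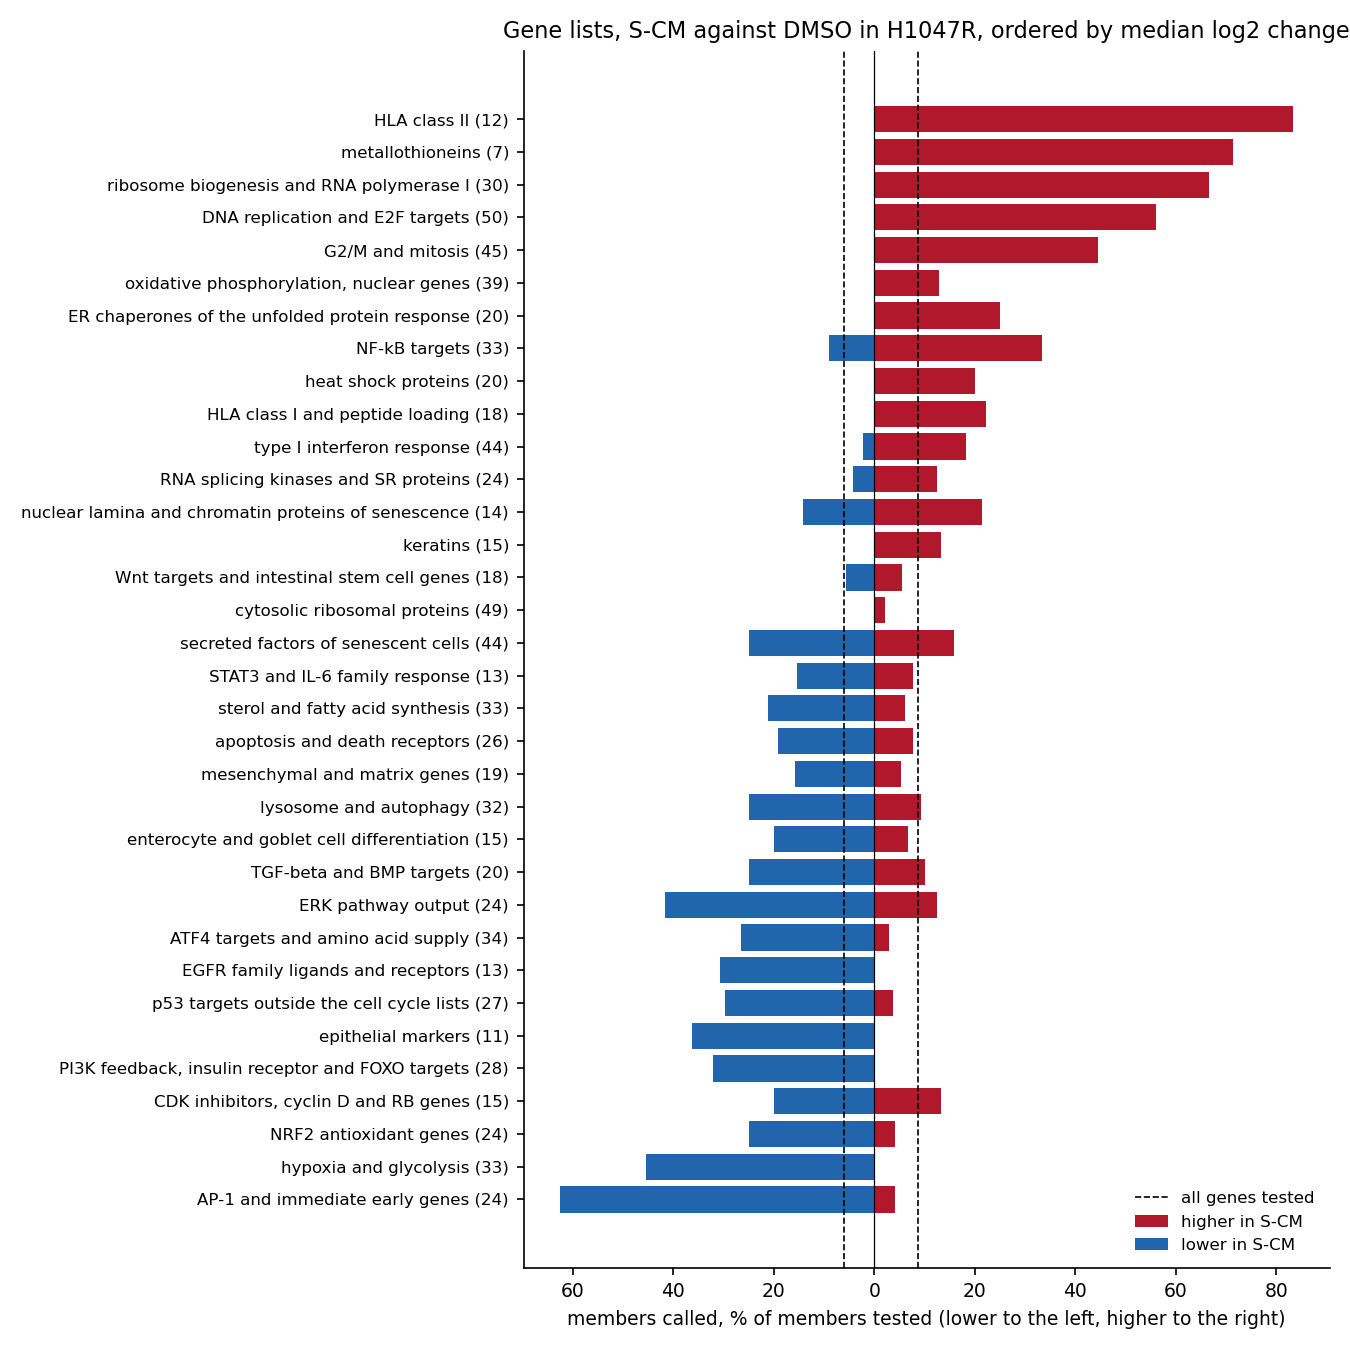
For each gene list the bars give the percent of its tested members called higher and lower in S-CM; dashed lines mark 8.65% and 5.97%, the shares among all genes tested. HLA class II, with 10 of 12 members, reaches furthest on the higher side, and immediate early genes, with 15 of 24, on the lower.

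Cell cycle genes were higher in S-CM. Of 50 DNA replication and E2F targets 28 rose and none fell (median log2 change 0.32). In 46 of the 50 both S-CM libraries lay above both DMSO libraries, where 29.9% of all genes tested did so. MCM3, a subunit of the replicative helicase, had 81.34 and 86.43 FPKM in S-CM and 57.35 and 57.15 FPKM in DMSO (0.54, adjusted p 0.000499). RFC3, of the clamp loader, had 22.55 and 21.76 FPKM in S-CM and 11.62 and 15.13 FPKM in DMSO (0.70). MCM4 and GINS3, both of the same helicase complex, rose by 0.52 and 0.66. Of 45 genes of G2/M and mitosis 20 rose and none fell (median 0.30). CCNB1, the mitotic cyclin B1, had 147.95 and 139.84 FPKM in S-CM and 98.25 and 93.84 FPKM in DMSO (0.58, adjusted p 0.000342). HMMR, a spindle protein gene, rose by 0.49. MKI67, the proliferation marker Ki-67, was not called, at 65.37 and 61.70 FPKM in S-CM and 55.53 and 61.22 FPKM in DMSO (0.12, adjusted p 0.724). LMNB1, the lamin that falls in senescence, was not called either (0.16, adjusted p 0.112). The number of replication genes higher was 20 and 18 without DMSO replicate 1 and 2, and 15 without either S-CM library, and without DMSO replicate 2 a single gene was lower. For G2/M it was 16 and 12 without DMSO replicate 1 and 2, and 6 and 11 without S-CM replicate 1 and 2.

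The CDK inhibitor genes CDKN1A, CDKN1B and CDKN1C were lower. In a list of 15 CDK inhibitors, D cyclins, their kinases and RB family genes these 3 fell, 2 rose and 10 were not called. CDKN1A, which encodes the CDK inhibitor p21, had 29.55 and 30.44 FPKM in S-CM and 61.31 and 57.78 FPKM in DMSO (log2 change -0.97, SE 0.11, adjusted p 0.000144). CDKN1C, encoding p57, had 2.97 and 4.55 FPKM in S-CM and 9.72 and 9.29 FPKM in DMSO (-1.16). CDKN1B, encoding p27, had 35.30 and 33.88 FPKM in S-CM and 50.93 and 52.63 FPKM in DMSO (-0.57, adjusted p 9.76e-05). All 3 inhibitors lay below DMSO in both S-CM libraries and kept their calls without each library in turn. The 2 higher genes were CDK4 and CCND1, a kinase and a cyclin that act together, at log2 changes of 0.43 and 0.23. The CDK4 call was lost without DMSO replicate 2, S-CM replicate 1 and S-CM replicate 2 (adjusted p 0.126, 0.0898 and 0.108), and that of CCND1 without any one of the 4 libraries (0.0593 to 0.117). Of 27 p53 targets tested 8 were lower and 1 higher. Besides CDKN1A and GDF15 the lower ones included TP53INP1, a cofactor of p53, at 3.04 and 2.94 FPKM in S-CM and 5.17 and 7.39 FPKM in DMSO (-0.85), and GADD45A, a DNA damage response gene (-0.61). MXI1, an antagonist of MYC, fell by 0.63.

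Genes of ribosome assembly rose, with 20 of 30 higher, none lower and a median log2 change of 0.39. NCL, the nucleolar protein nucleolin, had 304.89 and 290.68 FPKM in S-CM and 201.53 and 215.91 FPKM in DMSO (0.51, adjusted p 0.000342). NOP16 had 92.90 and 93.05 FPKM in S-CM and 62.13 and 61.51 FPKM in DMSO (0.58). MYC, a transcription factor known to drive such genes, had 82.09 and 87.12 FPKM in S-CM and 65.54 and 57.75 FPKM in DMSO (0.45, adjusted p 0.00243). Ribosomal proteins themselves did not move as a group: of 49 only RPL6 was called (median -0.04). For nuclear genes of oxidative phosphorylation the share called higher, 12.8%, was near the 8.65% of all genes tested. In 36 of these 39 genes DMSO replicate 1 lay above DMSO replicate 2, where 43.0% of all genes did so. Nuclear genes of oxidative phosphorylation had 5 of 39 higher, among them ATP5MC1, a subunit of the ATP synthase (0.68), or 2 without DMSO replicate 2 and 1 without either S-CM library. The ribosome assembly count was 14, 17, 12 and 11 without DMSO replicate 1, DMSO replicate 2, S-CM replicate 1 and S-CM replicate 2.

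Immediate early genes, which growth factors and stress switch on within minutes, were lower in S-CM: 15 of 24 fell and 1, MYC, rose (median log2 change -0.39). KLF2, a zinc finger factor, had 2.13 and 2.98 FPKM in S-CM and 7.36 and 4.63 FPKM in DMSO (-0.96). ZFP36, which hastens the decay of cytokine mRNAs, had 11.03 and 10.73 FPKM in S-CM and 21.98 and 18.34 FPKM in DMSO (-0.83, adjusted p 0.000191). EGR1 had 3.03 and 2.51 FPKM in S-CM and 5.91 and 4.79 FPKM in DMSO (-0.75). KLF6 and KLF4 fell by 0.67 and 0.69. JUNB stood at 30.11 and 32.61 FPKM in S-CM and 62.81 and 42.07 FPKM in DMSO, and its log2 change was -0.70, or -0.41 without DMSO replicate 1; its call was lost without S-CM replicate 1 (adjusted p 0.0545). FOS, at a log2 change of -0.52, lost its call without DMSO replicate 2 and without either S-CM library. The number lower was 11, 13, 8 and 13 without DMSO replicate 1, DMSO replicate 2, S-CM replicate 1 and S-CM replicate 2.

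Output genes of the ERK pathway had 10 of 24 lower and 3 higher. DUSP5, a phosphatase that switches off nuclear ERK, had 29.10 and 31.31 FPKM in S-CM and 65.25 and 58.01 FPKM in DMSO (it fell by 1.00, SE 0.10, adjusted p 5.93e-05). SPRY4, a feedback inhibitor of receptor signalling, fell by 0.67. DUSP6, the phosphatase of cytoplasmic ERK, did not follow, at 2.79 and 3.31 FPKM in S-CM and 3.13 and 2.93 FPKM in DMSO (adjusted p 0.982). Of 13 tested EGF receptor family genes 4 were lower and none higher, and each of the 4 calls was lost without at least 1 library. The ligand gene AREG stood at 85.76 and 83.80 FPKM in S-CM and 109.29 and 128.65 FPKM in DMSO (-0.48, adjusted p 0.00635), and the call was lost without DMSO replicate 2 (0.0637) and S-CM replicate 2 (0.054). The ligand gene EREG stood at 111.81 and 97.37 FPKM in S-CM and 125.84 and 156.31 FPKM in DMSO, and its call (adjusted p 0.0374) was lost without DMSO replicate 2 (0.269), S-CM replicate 1 (0.0703) and S-CM replicate 2 (0.255). HBEGF lost its call without S-CM replicate 2 (0.0528), and the receptor gene ERBB3 without DMSO replicate 2 (0.0545). EGFR itself was not called, at 55.53 and 55.73 FPKM in S-CM and 49.46 and 49.93 FPKM in DMSO (0.16, adjusted p 0.535). ERK output counted 2 higher and 5 lower without DMSO replicate 1, 1 and 5 without S-CM replicate 1, and 1 and 8 without DMSO replicate 2 or S-CM replicate 2.

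Genes of PI3K feedback, insulin receptor signalling and FOXO had 9 of 28 lower and none higher. TXNIP, which curbs glucose uptake, had 85.34 and 81.66 FPKM in S-CM and 149.15 and 161.62 FPKM in DMSO (-0.89, SE 0.09, adjusted p 6.36e-05). IRS2, an adaptor of the insulin receptor, had 13.76 and 14.54 FPKM in S-CM and 24.93 and 24.15 FPKM in DMSO (-0.75). TRIB3, a pseudokinase known to bind AKT, fell by 0.70. PIK3CA (chromosome 3, 179148126 to 179240093) was not called, at 6.79 and 5.75 FPKM in S-CM and 6.36 and 7.19 FPKM in DMSO (-0.10, adjusted p 0.614). These values do not separate the mutant transcript from the endogenous one. INSR, the insulin receptor gene, was not called (-0.18, adjusted p 0.214). The number lower was 5 without DMSO replicate 2 and without S-CM replicate 2, 6 without S-CM replicate 1 and 9 without DMSO replicate 1.

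The 3 genes ID1, ID2 and ID3, targets of BMP signalling that encode inhibitors of differentiation factors, all fell. ID1 had 37.06 and 39.60 FPKM in S-CM and 103.47 and 86.33 FPKM in DMSO (log2 change -1.28, SE 0.11, adjusted p 2.16e-05). ID2 had 26.67 and 24.66 FPKM in S-CM and 56.35 and 47.64 FPKM in DMSO (-0.99). ID3 had 22.57 and 25.66 FPKM in S-CM and 60.29 and 53.94 FPKM in DMSO (-1.21). In each the S-CM libraries lie close together and below both DMSO libraries. BMP4, a BMP ligand gene expressed at a high level here, was not called, at 418.13 and 442.00 FPKM in S-CM and 433.40 and 452.74 FPKM in DMSO. SMAD6, a feedback inhibitor of BMP signalling that it usually induces, rose by 0.43, and TGFBI, a TGF-beta target, had 67.67 and 71.44 FPKM in S-CM and 50.21 and 48.51 FPKM in DMSO (0.49). The whole TGF-beta and BMP list had 5 of 20 lower and 2 higher. Without DMSO replicate 1 and without S-CM replicate 1 the lower count was 3.

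Hypoxia genes were lower in S-CM, and in them the DMSO replicates differed as well. Of 33 hypoxia and glycolysis genes tested 15 fell and none rose, with a median log2 change of -0.36. NDRG1, a stress response gene, had 6.73 and 7.08 FPKM in S-CM and 32.63 and 18.67 FPKM in DMSO (-1.70, SE 0.17, adjusted p 5.93e-05). ANKRD37, a HIF-1 target, had 2.33 and 1.21 FPKM in S-CM and 16.49 and 6.01 FPKM in DMSO (-2.03, SE 0.31, adjusted p 0.00103). DDIT4, an inhibitor of mTORC1, had 33.91 and 36.11 FPKM in S-CM and 107.61 and 69.92 FPKM in DMSO (-1.29). In each of them DMSO replicate 1 lay above DMSO replicate 2, and both lay above S-CM. VEGFA had 19.66 and 18.42 FPKM in S-CM and 34.84 and 30.06 FPKM in DMSO (-0.74, adjusted p 6.36e-05). ENO2, an enolase gene, had 27.57 and 28.16 FPKM in S-CM and 59.63 and 45.00 FPKM in DMSO (-0.87). BNIP3L, of mitochondrial autophagy, and ALDOC, an aldolase gene, fell by 1.12 and 1.07. ANGPTL4, a lipase inhibitor gene, stood at 2.72 and 1.96 FPKM in S-CM and 10.28 and 4.28 FPKM in DMSO; its log2 change of -1.22 was -0.67 without DMSO replicate 1, and its call was lost without S-CM replicate 2 (adjusted p 0.0506). Not every member was lower. LDHA stood at 556.90 and 556.77 FPKM in S-CM and 739.17 and 492.15 FPKM in DMSO (-0.12, adjusted p 0.62), between the DMSO replicates, and was called lower without DMSO replicate 2 (-0.41, adjusted p 0.0225). ENO1 stood at 944.11 and 976.14 FPKM in S-CM and 841.99 and 647.90 FPKM in DMSO (0.38, adjusted p 0.0637), and was called higher after quantile normalization (adjusted p 0.0036), on the TPM scale (0.0179) and without DMSO replicate 1 (0.0172).

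All 33 hypoxia genes tested were higher in DMSO replicate 1 than in DMSO replicate 2, by a median log2 difference of 0.45; over all genes 43.0% were. Without DMSO replicate 1 the list held 12 lower and 3 higher genes with a median of -0.06, and without DMSO replicate 2 it held 21 lower and none higher with a median of -0.59. Without either S-CM library it held 12 lower. NDRG1, ANKRD37, DDIT4, VEGFA, ENO2, BNIP3L and ALDOC kept their calls without each library in turn. What the difference between the DMSO replicates contributes to the list's median was not tested.

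**Figure D4:**
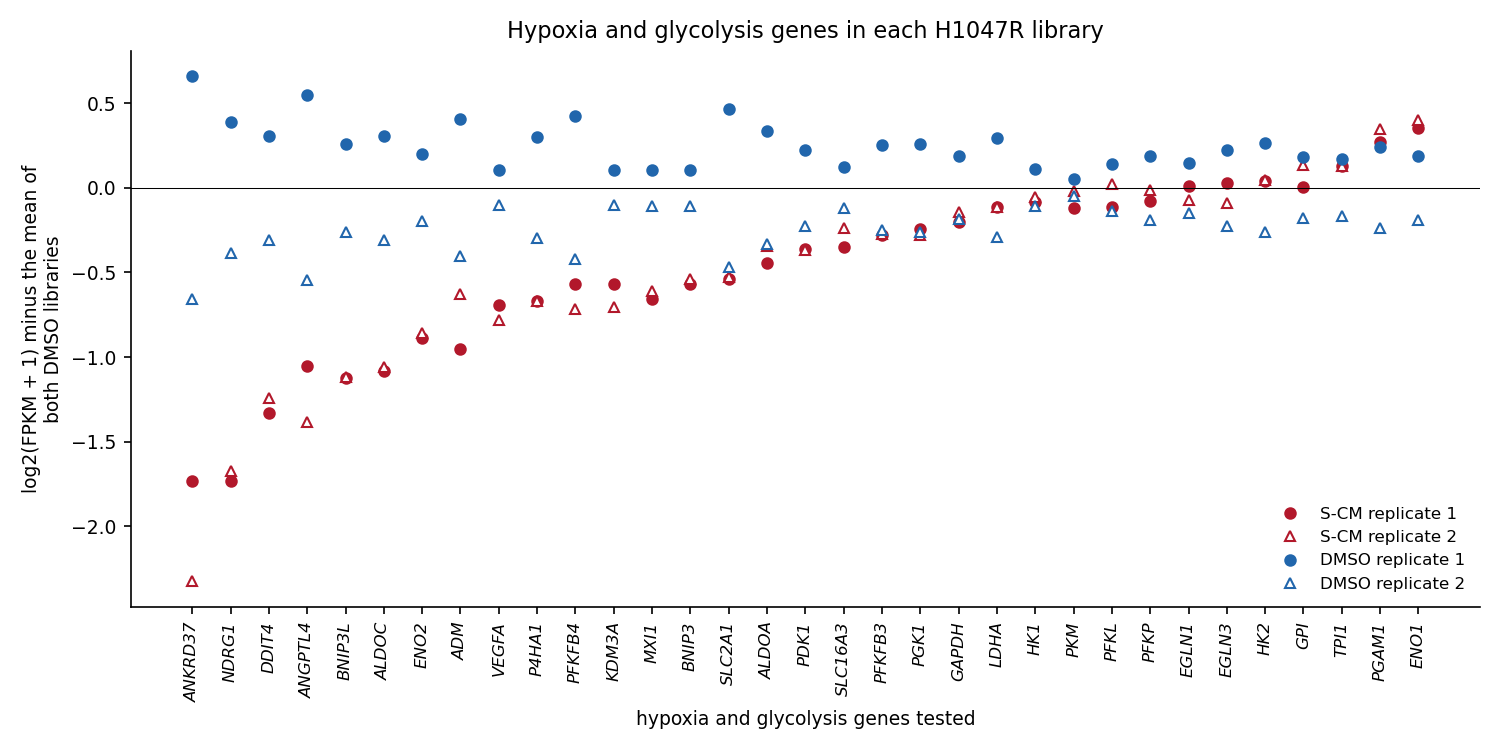
Each column is a hypoxia or glycolysis gene and each point its log2(FPKM + 1) in a single library, minus the mean of both DMSO libraries (y axis). DMSO replicate 1 lies above DMSO replicate 2 in all 33 genes, and in those furthest left, such as ANKRD37 and NDRG1, both DMSO libraries lie above both S-CM libraries.

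Metallothioneins, small zinc-binding proteins, had 5 of 7 higher and none lower, with a median log2 change of 0.62. MT1X had 39.74 and 35.60 FPKM in S-CM and 23.89 and 17.95 FPKM in DMSO (0.83, adjusted p 0.00241) and kept its call without each library. The others did not: the count was 5, 1, 2 and 2 without DMSO replicate 1, DMSO replicate 2, S-CM replicate 1 and S-CM replicate 2, and all 7 were higher in DMSO replicate 1 than in replicate 2. Reads of these near-identical genes may be shared. Of 34 ATF4 targets 9 were lower and 1 higher, and of 24 NRF2 antioxidant genes 6 were lower and 1 higher. ABCC3, a transporter of conjugated toxins, fell by 0.63. Without S-CM replicate 1, S-CM replicate 2 and DMSO replicate 2 the lower ATF4 targets numbered 3, 4 and 4 and the lower NRF2 genes 3, 2 and 3. Of 20 chaperones of the endoplasmic reticulum 5 rose, among them HSPA5, the main one, at 150.90 and 149.21 FPKM in S-CM and 114.80 and 117.03 FPKM in DMSO (0.37, adjusted p 0.0026). Sterol and fatty acid synthesis had 7 of 33 lower and 2 higher. INSIG1, a sterol sensor's partner and a target of SREBP, had 102.05 and 98.55 FPKM in S-CM and 164.98 and 162.04 FPKM in DMSO (-0.70, adjusted p 0.000167). Of the lysosome and autophagy genes 8 of 32 were lower and 3 higher, and NPC1, a cholesterol exporter of the lysosome, fell by 0.48. The lower lysosome genes numbered 5 and 4 without DMSO replicate 1 and 2, and 2 without either S-CM library, where 2 chaperones were higher.

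Lists of intestinal identity held few called genes each, beside the changes of GPA33 and GUCA2A given above. Wnt targets and stem cell genes had 1 of 18 higher and 1 lower, and LGR5, the receptor that marks intestinal stem cells, was not called (0.29, adjusted p 0.245). Enterocyte and goblet cell genes had 1 of 15 higher and 3 lower, and KLF4 was among the lower ones. Of 15 keratins 2 rose: KRT5, a basal keratin, had 3.62 and 4.98 FPKM in S-CM and 1.42 and 1.63 FPKM in DMSO (1.06, adjusted p 0.000133), and KRT4 stayed under 1 FPKM. Of 19 tested genes in the mesenchymal and matrix list, which also holds the epithelial genes EPCAM and CDH1, 1 rose and 3 fell. The integrin genes ITGA5 (-0.76) and ITGB4 (-0.60) were among the lower ones. Of 11 epithelial markers 4 were lower. LGALS4, a galectin of the gut epithelium, had 0.80 and 0.67 FPKM in S-CM and 4.03 and 3.45 FPKM in DMSO (-1.45), while the calls of CLDN3, CLDN4 and ESRP1 were each lost without at least 1 library. Of 26 apoptosis genes 5 were lower and 2 higher. PMAIP1, a killer protein of the BCL2 family, had 25.47 and 24.27 FPKM in S-CM and 34.31 and 39.37 FPKM in DMSO (-0.55), and the lower count was 3 without DMSO replicate 2 and without either S-CM library. In the nuclear lamina and chromatin list H1-2, a linker histone gene, had 7.03 and 8.10 FPKM in S-CM and 16.51 and 16.81 FPKM in DMSO (-1.05), and H2AZ1, a histone variant gene, rose by 0.45; 3 of 14 were higher and 2 lower. The STAT3 list had 1 of 13 higher and 2 lower, among them PIM1, a kinase gene (-0.83). Over all genes tested 8.65% were higher and 5.97% lower, and the shares of splicing factors, 12.5% and 4.17%, lay near these. Splicing factors had 3 of 24 higher and 1 lower, and 1 was higher without any one of the 4 libraries. Heat shock proteins had 4 of 20 higher, and no heat shock gene kept its call without each library.

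The response of H1047R cells was then set against that of E545K cells, whose S-CM and DMSO libraries are separate. S-CM against DMSO called 14.6% of genes in H1047R and 57.3% in E545K. Of the 1091 genes higher in H1047R 775 were also higher in E545K, 71.0% of the H1047R list and 18.9% of the 4090 genes of the E545K list, where 32.4% of all genes tested were higher in E545K. A further 77 were lower in E545K. Of the 753 lower genes 464 were lower in E545K, 61.6% of the H1047R list and 14.8% of the 3133 of the E545K list, where 24.9% of all genes tested were lower in E545K. A further 87 were higher in E545K. The difference between the 2 responses, tested as an interaction, was called for 4273 genes, 33.9%, of which 1906 were on the H1047R side (15.1%) and 2367 on the E545K side (18.8%). That split depends on scaling: 44.6% of the called differences were on the H1047R side, and 60.6% after median-centring, 52.2% after quantile normalization and 37.8% on the TPM scale.

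Interferon genes responded less in H1047R than in E545K, in 40 of 44 genes, and in none did they respond more. The median log2 change of the list was 0.09 in H1047R and 1.94 in E545K. IFI6 had 23.6 ± 0.792 FPKM in S-CM and 13.8 ± 2.04 FPKM in DMSO in H1047R (SD, n = 2 each), and 524 ± 40.4 FPKM in S-CM and 32.8 ± 0.205 FPKM in DMSO in E545K. HLA class II rose in both lines, with medians of 0.90 in H1047R and 0.80 in E545K, where 9 of 12 were called higher. CD74 responded less in H1047R than in E545K (1.38 and 2.56, adjusted p of the difference 0.000403). LRRN4 moved in opposite directions, at 2.18 in H1047R and -0.84 in E545K (adjusted p of the difference 1.47e-09). ID2 did so as well, at -0.99 in H1047R and 2.18 in E545K, where its S-CM libraries averaged 56.4 ± 2.87 FPKM and its DMSO libraries 11.7 ± 1.35 FPKM. LTB likewise rose in H1047R (0.89) and fell in E545K (-0.59). CCL20 had a log2 change of 0.15 in H1047R and of 4.80 in E545K (adjusted p of the difference 4.35e-07). GDF15 and CDKN1A fell in both, and by less in H1047R: -1.48 and -3.63 for GDF15, and -0.97 and -2.84 for CDKN1A, H1047R before E545K. The p53 list followed, with the H1047R response above that of E545K in 20 of 27 genes and below in 2. The lines also differed in DMSO, and the part of this in the result was not tested: CDKN1A averaged 59.5 ± 2.50 FPKM in H1047R DMSO and 313 ± 7.57 FPKM in E545K DMSO, but 30.0 ± 0.629 FPKM in H1047R S-CM and 43.0 ± 3.75 FPKM in E545K S-CM. For 17 of 33 hypoxia genes the log2 change was called lower in H1047R than in E545K, and for 1 higher. The list's median was -0.36 in H1047R, with 15 lower and none higher, and -0.01 in E545K, with 8 lower and 9 higher. The DMSO replicates of H1047R were apart as described.

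In WT cells 70.5% of genes were called, 51.9% higher and 18.6% lower, and the median log2 change of all genes was 0.29. WT medians and log2 changes are therefore given relative to that median, while counts of WT calls are against 0. The limma p-values of differences from WT test the changes before that median was taken off. Of the 1091 genes higher in H1047R 964 were also higher in WT, 88.4% of the H1047R list and 14.7% of the 6537 of the WT list. Of the 753 lower genes 456 were lower in WT, 60.6% of the H1047R list and 19.4% of the 2346 of the WT list, and 112 were higher in WT. The difference between the responses was called for 6422 genes, 50.9%, with 1313 on the H1047R side (10.4%) and 5109 on the WT side (40.5%). That split depends on scaling: 20.4% of the called differences were on the H1047R side, and 48.1% after quantile normalization, 57.7% after median-centring and 13.9% on the TPM scale. HLA class II rose in H1047R (median 0.90) but had a relative median of -0.50 in WT, with 3 genes called higher and 4 lower. CD74 averaged 46.2 ± 3.13 FPKM in S-CM and 17.4 ± 4.38 FPKM in DMSO in H1047R, and 19.9 ± 0.997 FPKM in S-CM and 27.8 ± 0.792 FPKM in DMSO in WT (adjusted p of the difference 4.33e-06). LRRN4 rose in both, with log2 changes of 2.18 in H1047R and 1.98 in WT relative to its median. The difference of the changes before that median was taken off was not called (adjusted p 0.593 in limma). Replication genes rose in both, 28 of 50 in H1047R and 48 of 50 in WT, with medians of 0.32 in H1047R and 0.72 in WT. Immediate early genes fell in both, 15 of 24 in H1047R and 20 of 24 in WT, with medians of -0.39 and -1.29. DUSP5 averaged 30.2 ± 1.56 FPKM in S-CM and 61.6 ± 5.12 FPKM in DMSO in H1047R, and 35.1 ± 7.40 FPKM in S-CM and 378 ± 2.51 FPKM in DMSO in WT. For this gene, as for CDKN1A and E545K above, the lines lay close together in S-CM and far apart in DMSO.

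**Figure D5:**
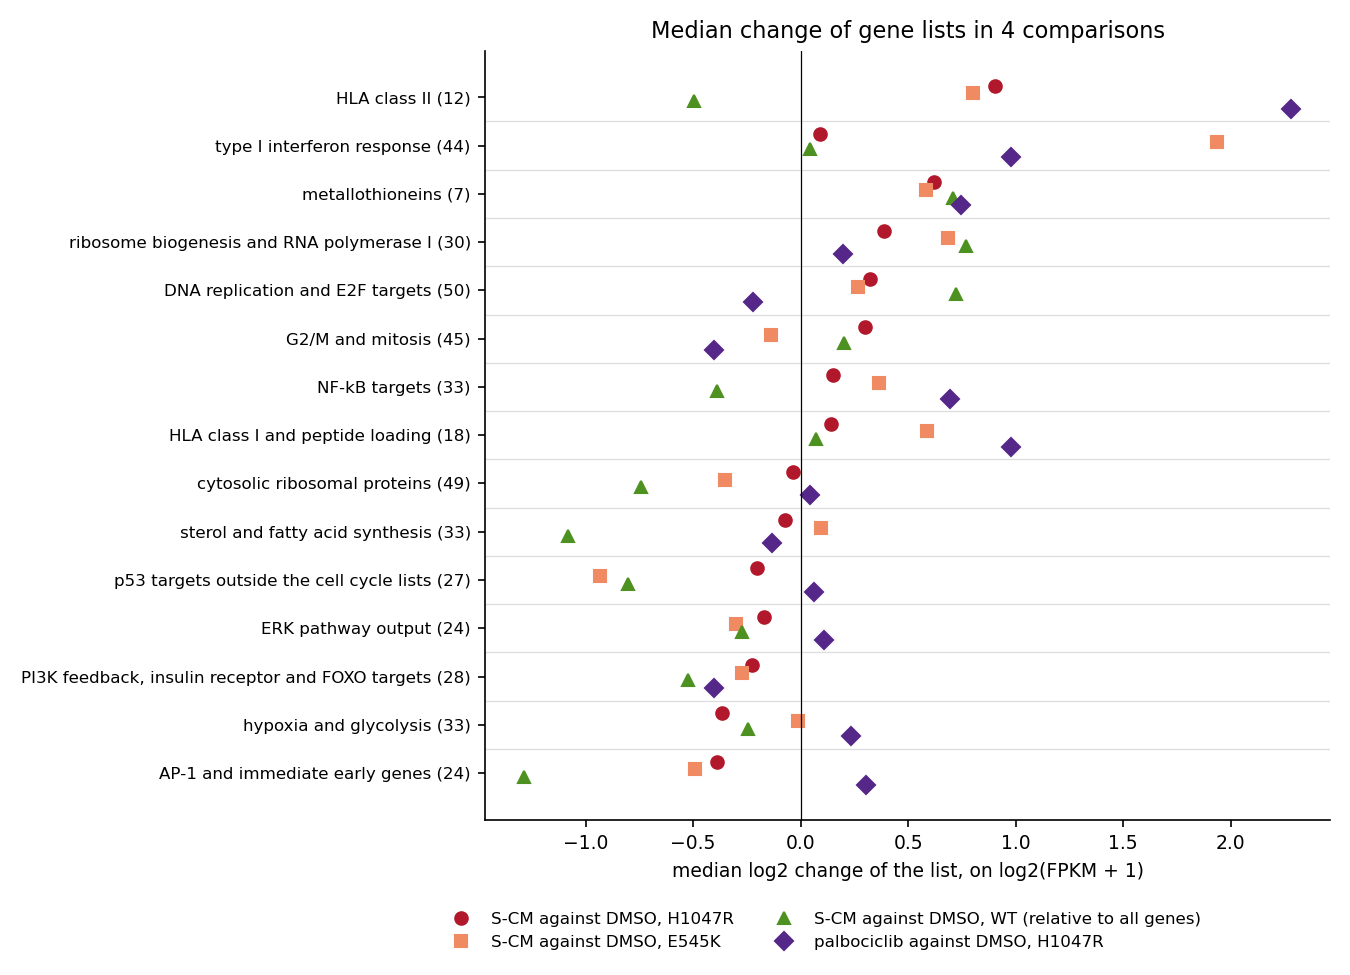
Points give the median log2 change of each gene list for S-CM against DMSO in H1047R, E545K and WT cells (WT relative to the median of all genes) and for palbociclib against DMSO in H1047R, on the log2(FPKM + 1) scale. The interferon list stands at 0.09 in H1047R and 1.94 in E545K, and HLA class II at 0.90 in H1047R, 0.80 in E545K and -0.50 in WT.

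Lastly S-CM was compared with palbociclib in the same H1047R cells, which asks whether the medium of senescent cells gives the profile of the drug that makes cells senescent. Of the genes tested 4138 differed, 32.8%, with 2217 higher in S-CM (17.6%) and 1921 lower (15.2%). The palbociclib replicates were far apart, with 913 genes over 1.5-fold between them, and the count was 6135 without palbociclib replicate 1 and 3000 without palbociclib replicate 2. It was 2184 without S-CM replicate 1 and 2862 without S-CM replicate 2, and 854 with only these groups in the fit. Replication genes were higher in S-CM than in palbociclib in 43 of 50 and lower in none, and G2/M genes were higher in 43 of 45. MKI67 averaged 63.535 ± 2.60 FPKM in S-CM and 24.15 ± 10.6 FPKM in palbociclib (log2 difference 1.43, adjusted p 6.88e-05), and LMNB1 was also higher in S-CM (0.84). CDKN1A averaged 30.0 ± 0.629 FPKM in S-CM and 62.6 ± 8.88 FPKM in palbociclib (-1.03). Its H1047R DMSO libraries, given above, lay near the palbociclib mean. Antigen presentation and inflammatory genes were lower in S-CM than in palbociclib. HLA class II was lower in 11 of 12 genes, and CD74 averaged 46.2 ± 3.13 FPKM in S-CM and 326 ± 40.2 FPKM in palbociclib (-2.79, adjusted p 5.56e-09). Interferon genes were lower in 39 of 44, NF-kB targets in 25 of 33, and the secreted factors in 32 of 44, with none of the secreted factors higher. MMP7 averaged 3.99 ± 1.50 FPKM in S-CM and 22.0 ± 4.54 FPKM in palbociclib (-2.22). NOS2, the inducible nitric oxide synthase gene, averaged 1.855 ± 0.431 FPKM in S-CM and 15.9 ± 1.11 FPKM in palbociclib (-2.57). COL3A1 was higher in S-CM, at 11.9 ± 0.368 FPKM in S-CM and 5.505 ± 0.488 FPKM in palbociclib (0.99), as were CNIH3 (1.23) and IQGAP2 (1.14). Against the shared DMSO libraries the 2 treatments' own list medians, S-CM before palbociclib, were 0.90 and 2.28 for HLA class II, 0.32 and -0.22 for replication, 0.30 and -0.40 for G2/M, -0.39 and 0.30 for immediate early genes, and 0.39 and 0.20 for ribosome assembly.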

How the data were processed

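RNA sequencing values were deposited by the authors as FPKM per library with 2 decimals, per the file headers. Per the submitters' processing notes the build was GRCh38 and the tools, whose roles are not given, included RSEM 1.3.1, HISAT2 2.1.0, DESeq2 1.4.5 and Bowtie2 2.3.4.3. Read depth is unknown: steps between low values of 530 genes lay within 0.15 of a whole multiple for 52.4% of values, so reads were not recovered, and no counting interval is given.

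Here log2(FPKM + 1) values were fitted with limma 3.58.1 in R 4.3.3, with 1 coefficient for each of the 9 groups of 18 libraries and an intensity trend. Residual degrees of freedom were 9 and the prior added 5.58. Genes with at least 1 FPKM in at least 2 libraries were tested, 12607 of 18165. Tests were in both directions, p-values were adjusted with the Benjamini-Hochberg method per comparison and called below 0.05. Responses of 2 lines were compared as contrasts of contrasts. The spread left after the fit (SD of log2 values) was 0.0993 in H1047R S-CM, 0.17 in H1047R DMSO and 0.232 in H1047R palbociclib, and 0.0947 to 0.116 in the other groups, while the fit shares 1 spread per gene. The samples, gene lists and comparisons were chosen with earlier results of these data known. Named genes were the 15 largest changes each way with a mean of at least 5 FPKM in the higher group and groups that do not overlap. The 4 largest called members of each list and the 6 largest each way in each difference were added. Genes of a difference had also to be called in S-CM against DMSO in H1047R, with groups that do not overlap. Always named were PIK3CA, EGFR, AREG, EREG, ERBB3, IRS2, INSR, CCND1, CDKN1A, MKI67, LMNB1, GDF15, CD74, LGR5, CXCL8, CCL20, MYC, DUSP6 and ALPG. Others were added after their values were seen, among them the remaining HLA class II genes, IL1B, VEGFA, ENO2, ENO1, LDHA, SAT1, MXI1, SMAD6 and BMP4. On simulated data with 100 genes changed by a log2 change of 0.5 and 100 by 1 in this comparison of 12607 genes, 66% and 94% were recovered, with 8 false calls. The simulation gave every group the same spread per gene, which the measured groups do not have. Its false calls can therefore understate those of these libraries. Some genes that met this rule are not reported here. Promoters came from RefSeq on GRCh38.p14, matched by gene ID. Plots were drawn with matplotlib 3.10.9. Alternatives were another pseudocount, other filters, 3 other scalings, only the groups compared, no trend, a replicate block, and each library left out.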

Additional observations from a re-analysis of the deposited data

Results flagged for a closer look

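The response to S-CM differed between H1047R and E545K for 4273 genes and between H1047R and WT for 6422 genes, each tested as a difference of the changes in limma. Genes among those with the largest differences each way are given here, as log2(FPKM + 1) differences and with means ± SD (n = 2 libraries a group). They were picked by size among genes also called in S-CM against DMSO in H1047R. Those groups had not to overlap, and the highest group mean had to reach 5 FPKM. Genes not called in H1047R, such as CCL20, are therefore left out.

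Against E545K the difference was 3.02 for LRRN4, which rose in H1047R and fell in E545K. AKR1C3, an enzyme of steroid metabolism, had a difference of 2.86, at 15.8 ± 0.177 FPKM in S-CM and 27.4 ± 12.2 FPKM in DMSO in H1047R, and 1.12 ± 0.0849 FPKM in S-CM and 23.7 ± 0.113 FPKM in DMSO in E545K. Its own change in H1047R was not called without DMSO replicate 2, S-CM replicate 1 or S-CM replicate 2. The difference was 2.15 for GDF15, lower in S-CM in both lines, and 2.11 for both CXorf49B and the placental alkaline phosphatase gene ALPP. PIGR, the receptor that carries antibodies across epithelia, had a difference of -3.78, at 7.07 ± 0.191 FPKM in S-CM and 9.38 ± 0.615 FPKM in DMSO in H1047R, and 23.3 ± 2.47 FPKM in S-CM and 1.26 ± 0.00707 FPKM in DMSO in E545K. The interferon genes IFI6, MX1 and SAMD9 had differences of -3.22, -3.21 and -3.13. MX1 averaged 46.7 ± 0.262 FPKM in S-CM and 39.2 ± 0.997 FPKM in DMSO in H1047R, and 206 ± 6.80 FPKM in S-CM and 17.9 ± 0.0354 FPKM in DMSO in E545K. ID2 and GPA33, at -3.16 and -2.97, were lower in S-CM in H1047R and higher in E545K. GPA33 averaged 20.7 ± 0.700 FPKM in S-CM and 49.7 ± 13.2 FPKM in DMSO in H1047R, and 35.3 ± 0.410 FPKM in S-CM and 9.66 ± 0.0990 FPKM in DMSO in E545K.

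Calls of a difference from WT were made before any median was taken off. Against WT the differences given here are relative to the median difference of all genes. They were 3.06 for IFI27 and 3.06 for S100P, a calcium binding protein gene. IFI27 averaged 35.4 ± 0.0707 FPKM in S-CM and 23.1 ± 1.97 FPKM in DMSO in H1047R, and 39.8 ± 2.59 FPKM in S-CM and 185 ± 9.14 FPKM in DMSO in WT. The stress gene GADD45B followed at 3.00, DUSP5 at 2.68, the chemokine gene CCL26 at 2.64 and ATF3, a stress-induced transcription factor, at 2.60. S100P, GADD45B, DUSP5, CCL26 and ATF3 were lower in S-CM in both lines and by more in WT, where ATF3 averaged 11.9 ± 0.799 FPKM in S-CM and 83.7 ± 2.86 FPKM in DMSO, against 12.8 ± 0.700 FPKM in S-CM and 17.1 ± 0.983 FPKM in DMSO in H1047R. On the other side EGR1 differed by -2.08, at 2.77 ± 0.368 FPKM in S-CM and 5.35 ± 0.792 FPKM in DMSO in H1047R, and 10.2 ± 0.382 FPKM in S-CM and 2.68 ± 0.0283 FPKM in DMSO in WT. The relative difference was -2.08 for LRIF1, -2.04 for SEPHS2, a selenium metabolism enzyme, -1.98 for INTS5, -1.96 for GEMIN4 and -1.94 for PFAS, a purine synthesis enzyme. GEMIN4 averaged 21.9 ± 0.0283 FPKM in S-CM and 15.9 ± 0.948 FPKM in DMSO in H1047R, and 20.3 ± 0.467 FPKM in S-CM and 2.35 ± 0.0212 FPKM in DMSO in WT. In these genes the lines lay closer in S-CM than in DMSO, except EGR1. The changes in H1047R of ALPP, PIGR, MX1, GADD45B, CCL26, ATF3, LRIF1 and INTS5 each lost their call without at least 1 H1047R library.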

How the results depend on the processing

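Of 1091 higher and 753 lower genes, the fit with only the groups compared called 361 and 244, and it called 854 for S-CM against palbociclib, against 4138. Leaving out 1 library at a time gave 391 to 872 higher and 286 to 646 lower genes, 3174 to 4168 differences from E545K, 5444 to 6404 from WT and 2184 to 6135 from palbociclib. A lone library is assumed to vary like the other groups. Equal replicate numbers were treated as names only: deviations of same-numbered libraries correlated across genes at -0.356 for H1047R S-CM with DMSO, and at -0.561 to 0.553 over 36 pairs of groups, 15 of them over 0.1. The fit with a replicate block called 1119 higher and 780 lower genes, 4329 and 6505 differences from E545K and WT, and 4211 from palbociclib. With the S-CM numbers crossed in the block, chosen after seeing the data, it called 1015 higher and 704 lower genes. A pseudocount of 0.1, no filter, a filter at 5 FPKM, quantile normalization, median-centring, the TPM scale and no trend gave 888 to 1090 higher and 683 to 993 lower genes. On the TPM scale 64.0% of the genes that differed from palbociclib were higher in S-CM, against 53.6%. Of 201 named genes called, 112 kept their call in all 13 settings and 89 lost it in at least 1, and no called gene changed sign. The genes that changed sign were uncalled: BMP4 stood at 0.010 after quantile normalization and DUSP6 at -0.0040 on the TPM scale. Without 1 library at a time the log2 change ran from -0.076 to 0.17 for CXCL1, -0.22 to 0.45 for CXCL8, -0.088 to 0.097 for DUSP6, -0.36 to 0.012 for GAPDH, -0.41 to 0.18 for LDHA and -0.20 to 0.0048 for PIK3CA. For all these changes the cause was not tested. The 2 libraries a group limit the precision, and read depth is unknown.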

Other observations

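Further gene groups, chosen after their values were seen, are described here by their counts alone. As the choice followed the values, these counts test nothing about the groups. Over all genes tested 8.65% were higher and 5.97% lower. Genes of nucleotide synthesis were higher in S-CM, in 10 of 18 for purines and pyrimidines with none lower, and a median log2 change of 0.31. MTHFD1, which supplies folate units, had 70.13 and 69.21 FPKM in S-CM and 42.45 and 42.82 FPKM in DMSO (0.70, adjusted p 4.2e-05 in limma). NME1, a nucleoside diphosphate kinase gene, had 145.17 and 145.35 FPKM in S-CM and 95.34 and 77.77 FPKM in DMSO (0.75). Both pairs lay clear of each other, and PRPS1, CAD and CTPS1 rose by 0.60, 0.45 and 0.41. The higher count was 7 to 9 without each of the 4 libraries in turn. Replication-dependent histone genes stood on the other side, with 6 of 23 lower, none higher and a median of -0.26, and H1-2 among them. Without each library in turn 3 to 5 were lower, and 1 was higher without DMSO replicate 2.

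Of 13 circadian clock genes 8 were lower and none higher, with a median of -0.35, where 5.97% of all genes tested were lower. BHLHE40, a repressor of clock transcription that hypoxia also induces, had 18.55 and 19.55 FPKM in S-CM and 49.04 and 34.25 FPKM in DMSO (-1.07). DBP, a clock output factor, had 3.02 and 3.97 FPKM in S-CM and 10.18 and 7.27 FPKM in DMSO (-1.11). DMSO replicate 1 was the higher DMSO library in both. Without either DMSO library 6 were lower, and without either S-CM library 3. SRM, which makes spermidine, rose to 55.60 and 58.40 FPKM in S-CM, against 41.19 and 33.76 FPKM in DMSO (0.60), where SAT1 fell by 1.00. TFRC, the transferrin receptor, had 95.43 and 90.32 FPKM in S-CM and 57.69 and 54.41 FPKM in DMSO (0.72). PTGES, a prostaglandin E synthase gene, had 51.52 and 53.60 FPKM in S-CM and 33.59 and 28.68 FPKM in DMSO (0.74). HILPDA, a lipid droplet protein induced by hypoxia, had 24.30 and 22.08 FPKM in S-CM and 53.03 and 38.33 FPKM in DMSO (-0.93). NME1 and its neighbour NME2 can share read-through transcripts, and how reads were split between them is uncertain.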
